A study of Mus musculus with 15 samples.

Results

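Gene expression in DN3 thymocytes was set against that of cultured control pro-B cells, using 6 of the 15 arrays of a mouse series on the transcription factor Bcl11a. The 3 arrays titled DN3 carry the genotype label Bcl11bCKO/CKO, the strain label C57B7, an age of 6 to 8 weeks and the tissue label lymphocytes, with no cell type given. The 3 control pro-B arrays, titled EAAE-OHT, are labelled wild type, of a mixed C57BL/6 and 129S5 background and 6 to 8 weeks of age, and hold pro-B cells grown from bone marrow for 10 days with IL-7, Flt3L and SCF. Both sets were hybridised to Illumina bead arrays, 1 array per sample, and chosen by their titles. The same culture text stands on the DN3 samples, so whether those cells were cultured is unsure. What EAAE and OHT stand for is not stated, the labels name no Cre for the Bcl11bCKO alleles, and they do not say which part of Bcl11b is flanked for deletion. Stage, genotype, strain, tissue and slide all change together between the groups, so their shares in any difference below cannot be told apart. In bulk samples such as these, fewer cells of a type and less RNA per cell cannot be told apart either.

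DN3 cells are an early stage of T cell development in the thymus, before the co-receptors CD4 and CD8 appear. At this stage the T cell receptor beta chain is assembled and pairs with a surrogate alpha chain, Ptcra, and the CD3 chains to form the pre-T cell receptor (pre-TCR), while Notch signals from the thymic stroma hold cells in the T lineage. Pro-B cells are the counterpart stage in bone marrow: they rearrange the immunoglobulin heavy chain, depend on IL-7 in culture, and make the surrogate light chain proteins Igll1 and Vpreb1 for the pre-B cell receptor (pre-BCR). Both stages use the Rag recombinase, and both lineages rest on E proteins, transcription factors that bind the E-box motif.

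Values are log2 intensities after background correction and quantile normalisation over the 15 arrays, on which the lowest detected probe read 5.64 to 5.70 on DN3 arrays and 5.59 to 6.41 on control arrays. They compare the same gene between arrays and not 1 gene with another. Detected probes numbered 14448 to 14767 on DN3 arrays and 11473 to 15164 on control arrays. Control replicate 3 was the lowest: its mean signal was 187 where its fellow controls had 750 and 600, and it correlated with them at 0.914 and 0.916. The DN3 arrays correlated at 0.982 to 0.984 among themselves. They lay alone on slide 3, and no background had been subtracted from their deposited signals, whose lowest value was 39.6.

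Among 10290 genes tested with limma over all 15 arrays, 4668 passed at an adjusted p under 0.05, or 45.4%. Of these, 2156 were higher in DN3 arrays (21% of genes tested) and 2512 were lower (24.4%), so higher genes made up 46.2% of the calls. Scaling each array to its 75th percentile in place of quantile normalisation gave 2914 higher and 1686 lower genes, with 63.3% of the calls higher and a median over all genes of 0.31, against -0.07 in the fit used here. A change beyond 2-fold, tested with limma's treat, was called for 955 genes (9.28%), of which 531 were higher (5.16%) and 424 lower (4.12%). With calls this common, the count of a gene list is read below against those shares. A probe had to be detected on at least 3 of the 15 arrays to be tested, so a gene detected in 1 of the groups alone was tested because it was bright there and had to differ. Counts therefore describe the genes that passed this filter, and genes that passed through 1 side alone are counted apart where they are many: with the DN3 arrays alone means detected on under 3 of the 12 pro-B arrays, and with the pro-B arrays alone means detected on no DN3 array.

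In DN3 arrays the highest fold changes belonged to Cd3d, Trbv13-2, Pdlim4, Thy1, Bcl11b, Cd3e, Cd27, Cd3g, Cd163l1 and Trat1. The lowest belonged to Igll1, Vpreb1, Crhbp, Vpreb3, Chst3, Btk, Clgn, Lyz1, Dok3 and Hhex. Several were below background on every array of 1 group, so their folds are lower bounds, set against the lowest signal that counted as detected on each array and written "at least".

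**Figure D1:**
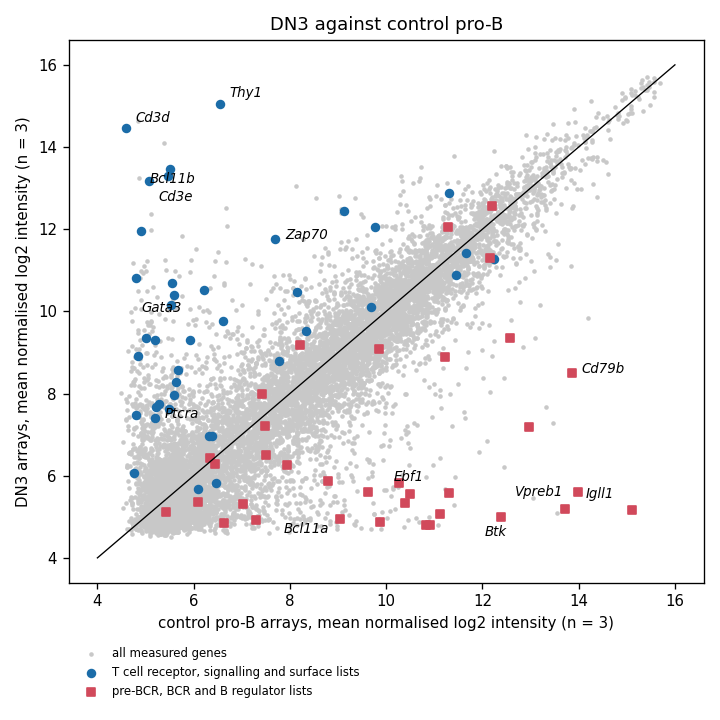
Mean normalised log2 intensity of each of the 10290 genes on the 3 DN3 arrays (vertical axis) against the 3 control pro-B arrays (horizontal axis); the line marks equal values. Genes of the T cell receptor, signalling and surface lists (blue circles) lie mostly above the line and genes of the pre-BCR and B regulator lists (red squares) mostly below it, with Cd3d at 14.46 on DN3 arrays and 4.58 on control arrays, and Igll1 at 5.17 and 15.11.

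Bcl11b, a zinc finger transcription factor of T cell commitment and the gene named in the DN3 genotype label, was bright on all DN3 arrays. Its brightest probe, ILMN_2611022, read 13.33, 12.98 and 13.39 on DN3 arrays, against 4.84, 4.71 and 5.07 on control arrays, where it was below background. The fold was at least 165 (limma adjusted p = 5.39e-14). All 3 DN3 arrays thus stood far above all 12 pro-B arrays, whose highest value was 5.12. The probes ILMN_2436183 and ILMN_2443624 were also higher, at 10.93 to 11.26 and 8.02 to 8.24 on DN3 arrays, against 4.65 to 4.71 and 4.45 to 4.92 on control arrays, where both were below background, while ILMN_1223119 was below background on every array. Where the probes lie relative to the flanked segment is not known here, and a probe outside it could still give signal after deletion. These values therefore do not settle whether Bcl11b was deleted in the cells labelled Bcl11bCKO/CKO.

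Bcl11a, the related factor needed for B cell development, went the other way. Probe ILMN_2712044 read 4.72, 4.90 and 5.20 on DN3 arrays, below background, against 8.997, 8.73 and 9.41 on control arrays, a fold of at least 10.3 lower (limma adjusted p = 5.34e-10). The second kept probe, ILMN_1257463, read 5.21, 5.14 and 5.81 on DN3 arrays and 8.45, 8.66 and 10.39 on control arrays. It was detected on 1 DN3 array and on all 12 pro-B arrays. The third, ILMN_1234185, was below background everywhere. Neither kept probe overlapped between the groups, and the 3 arrays labelled Bcl11a-deficient read no lower than the controls with ILMN_2712044.

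**Figure D2:**
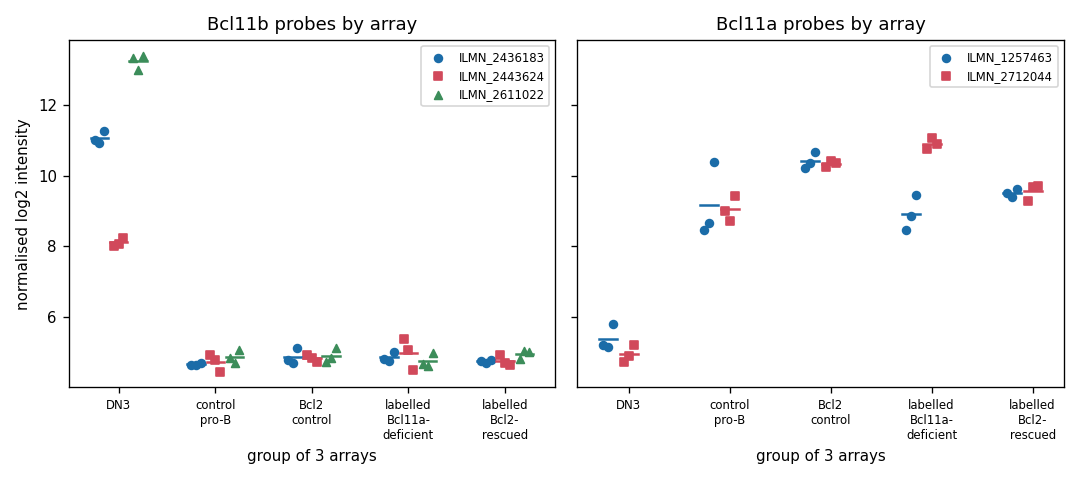
Normalised log2 intensity of the kept Bcl11b probes (left panel) and Bcl11a probes (right panel) on each array, by group of 3 arrays; points are arrays and short lines are group means. The 3 Bcl11b probes lie at 8.02 to 13.39 on DN3 arrays and at 5.37 or below on every pro-B array, and the 2 Bcl11a probes lie at 5.81 or below on DN3 arrays and at 8.45 or above on every pro-B array.

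The pre-TCR and TCR complex was higher in DN3 arrays in every measured member. All 6 genes with a probe passed the filter, 5 of them with the DN3 arrays alone, and all 6 rose, all beyond 2-fold, with a median log2 fold change of 7.44 (6.70 with bounds in place of values below background), against 21% of all genes called higher and a median of -0.07. All 6 also read higher on every DN3 array than on any of the 12 pro-B arrays, which 14.2% of all genes did. For the 5 that passed with the DN3 arrays alone, the filter largely fixed this beforehand, so it adds no support. Cd3d, a CD3 signalling chain, read 14.42, 14.53 and 14.42 on DN3 arrays, against 4.52, 4.63 and 4.60 on control arrays, at least 385-fold higher (limma adjusted p = 2.32e-15). Cd3e, its partner chain, read 13.20, 13.18 and 13.18 in DN3 arrays and 4.82, 5.12 and 5.25 in control arrays, at least 159-fold higher. The 2 sets of arrays were separated by a wide gap for both chains. Cd3g, the third CD3 chain, read 13.22, 13.31 and 13.32 in DN3 arrays and 5.03, 4.89 and 6.48 in control arrays, where control replicate 3 alone was detected. Its log2 fold change was 7.82 ± 0.31. Errors throughout are SE from the limma fit over all 15 arrays, with n = 3 arrays a group. Cd247, the zeta chain, was 3.39 ± 0.31 higher. Trat1, a transmembrane adaptor that associates with the receptor, was at least 68.2-fold higher.

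Ptcra, the surrogate alpha chain that defines the pre-TCR, read 7.23, 7.48 and 7.51 in DN3 arrays and 5.49, 5.02 and 5.04 in control arrays, at least 2.91-fold higher (limma adjusted p = 1.43e-06). Its level was above background on all DN3 arrays and on no control array, though its change was the smallest of the 6. Trbv13-2, a variable segment of the T cell receptor beta chain, read 14.59, 14.58 and 14.71 in DN3 arrays and 4.77, 4.87 and 4.87 in control arrays, at least 432-fold higher. Variable segments resemble each other, so this probe may also read related segments. The constant region genes and Lck have no probe named here and were not analysed.

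Proximal promoters of receptor genes of both lineages are shown because E proteins, which bind E-boxes, act in both. The 250 bases before the start of each gene come from RefSeq (GRCm38.p6), with Ptcra at chr17:46763713-46763962, Cd3g at chr9:44980432-44980681, Igll1 at chr16:16863986-16864235 and Vpreb1 at chr16:16869256-16869505, all on the minus strand and printed 5′ to 3′ in the direction of the gene. Capitals mark the E-boxes CACCTG, in either orientation, and CAGCTG.

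Ptcra: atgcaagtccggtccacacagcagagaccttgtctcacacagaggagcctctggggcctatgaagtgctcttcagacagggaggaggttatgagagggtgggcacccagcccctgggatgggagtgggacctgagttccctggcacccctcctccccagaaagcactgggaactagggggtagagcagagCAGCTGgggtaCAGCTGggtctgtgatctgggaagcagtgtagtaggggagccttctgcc
Cd3g: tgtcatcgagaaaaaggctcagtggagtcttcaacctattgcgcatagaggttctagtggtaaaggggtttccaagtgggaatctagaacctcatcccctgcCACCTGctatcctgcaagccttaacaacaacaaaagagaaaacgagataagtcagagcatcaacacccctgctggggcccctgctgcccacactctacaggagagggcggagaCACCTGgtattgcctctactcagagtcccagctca
Igll1: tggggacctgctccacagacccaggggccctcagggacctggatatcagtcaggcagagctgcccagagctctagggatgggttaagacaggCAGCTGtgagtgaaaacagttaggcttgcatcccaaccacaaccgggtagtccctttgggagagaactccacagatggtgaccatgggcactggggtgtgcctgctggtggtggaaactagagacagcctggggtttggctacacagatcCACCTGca
Vpreb1: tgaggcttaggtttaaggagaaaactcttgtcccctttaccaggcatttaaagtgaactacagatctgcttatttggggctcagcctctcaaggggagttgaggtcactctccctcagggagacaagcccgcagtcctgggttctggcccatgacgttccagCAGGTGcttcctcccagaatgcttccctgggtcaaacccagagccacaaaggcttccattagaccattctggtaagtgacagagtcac

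Cd3g held 2 copies of CACCTG, Igll1 held 1 CACCTG and 1 CAGCTG, Vpreb1 held 1 CACCTG read on the other strand, and Ptcra held 2 CAGCTG and no CACCTG. Among measured genes with a promoter sequence, CACCTG on either strand was found in 9 of 13 pre-BCR and BCR genes (69.2%) and in 3 of 6 pre-TCR and TCR genes (50%), against 15.04% of 8350 measured genes and 17.1% of all 27025 promoters. The motif was singled out after 6 had been counted. The other 5 were CAGCTG, the EBF1 motif CCCNNGGG, the GATA motif AGATAA, the RUNX motif TGTGGT and the TCF motif CTTTGA, searched on both strands; none has the same letters as CACCTG. The E-box CAGCTG was found in 1 of 13 pre-BCR and BCR promoters and 1 of 6 pre-TCR and TCR promoters (7.69% and 16.7%), against 11.2% of measured genes. CACCTG was found in 1 of 17 promoters of B lineage regulators (5.88%) and 4 of 16 of T lineage regulators (25%). In the pre-BCR and BCR genes CCCNNGGG was found in 2 of 13 promoters (15.4%), against 15.1% of measured genes. A match describes letters in this window, not a binding site.

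Signalling parts downstream of the receptor rose with it. In the proximal T cell signalling list, 14 of 17 measured genes were higher in DN3 arrays and none was lower, with a median log2 fold change of 2.45. Of the 14 genes that did not pass through 1 side alone, 11 were higher. Zap70, the kinase that binds phosphorylated CD3 chains, read 11.72, 11.88 and 11.66 in DN3 arrays and 7.41, 7.63 and 8.06 in control arrays (log2 fold change 4.05 ± 0.18). Zap70 was thus detected on all arrays of both groups, without overlap. Lat, the membrane scaffold it phosphorylates, was 5.14 ± 0.33 higher, with values of 10.56 to 10.79 in DN3 arrays and 4.75 to 6.52 in control arrays. Lcp2, the SLP-76 adaptor, was at least 8.24-fold higher and Skap1, an adaptor linking the receptor to integrins, at least 10.8-fold. Prkcq, the protein kinase C isoform of T cells, rose by 4.61 ± 0.29 and Sh2d2a, an adaptor that binds Lck, by 3.32 ± 0.29. All 3 kept probes of Lcp2, and likewise of Skap1, were detected on every DN3 array and on no control array. Each was detected on at most 1 pro-B array, so the filter kept them only through the DN3 arrays. Their agreement is therefore no separate support.

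Among T cell surface genes, 13 of 17 measured were higher and 1 was lower, with a median of 2.45. Another 5 genes with a probe did not pass the filter, and 6 of the 17 passed with the DN3 arrays alone; of the remaining 11, 7 were higher and 1 lower. Thy1, the classical surface marker of mouse thymocytes, read 15.03, 15.08 and 15.04 in DN3 arrays and 7.39, 6.74 and 5.51 in control arrays (8.51 ± 0.39). Thy1 was near the top of the scale on DN3 arrays and spread by nearly 2 units among controls. Cd27, a costimulatory receptor of the TNF receptor family, was at least 194-fold higher, with values of 13.25 to 13.62 in DN3 arrays and 5.46 to 5.53 in control arrays. Cd6 and Cd28, costimulatory receptors, were at least 31.0-fold and 11.2-fold higher. Ctla4, the inhibitory counterpart of Cd28, was 4.82 ± 0.22 higher and Cd160 4.29 ± 0.26. Il2ra, the CD25 antigen by which DN2 and DN3 cells are recognised, read 8.55, 8.69 and 8.44 in DN3 arrays and 5.37, 6.08 and 5.57 in control arrays (2.89 ± 0.20). The DN3 values lay above all 12 pro-B arrays, whose highest was 8.19.

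A few further markers bear on the stage label but do not settle it. Cd44, which is lost as thymocytes enter DN3, fell to 7.79, 6.89 and 7.14 in DN3 arrays, against 10.45, 10.26 and 11.06 in control arrays (-3.31 ± 0.24); the dimmest probe of the gene gave 0.04. Kit, the receptor for SCF, read 10.14, 10.54 and 10.56 in DN3 arrays and 9.60, 9.28 and 9.06 in control arrays (1.10 ± 0.24). Kit thus did not fall as Cd44 did. It gave -0.091 against the Bcl2 control arrays, pro-B cells labelled as overexpressing Bcl2. Cd4 and Cd8a were below background on all DN3 arrays with every probe, and so was S1pr1, a receptor of thymocytes ready to leave. All 3 were also below background on all 12 pro-B arrays, so their absence says little. Ccr7, another marker of later T cells, was detected at 6.22 to 7.52 on DN3 arrays and 6.10 to 6.67 on control arrays. Klf2 and Ccl5 were higher, by 1.04 and 2.27, in a list of mature and double-positive genes with 5 of 10 higher and 1 lower. The Cd8b1 probes disagreed. ILMN_1257694, which stood for the gene, gave -0.59 ± 0.29 and did not pass, but without control replicate 3 it gave -1.07 and passed. It read 10.82 to 10.96 on DN3 arrays and 10.47 to 11.98 on control arrays. ILMN_2741169 gave 8.41, with 13.72, 13.97 and 14.10 on DN3 arrays and 5.33 to 5.65 on control arrays. ILMN_2664929 gave 5.76, with 10.52 to 11.40 on DN3 arrays and 4.81 to 5.94 on control arrays. Unlike Cd4 and Cd8a, Cd8b1 was thus detected on all DN3 arrays with each of these probes. The cause of this was not tested. Cd44 and Kit, together with Nrarp, Ly6c1 and Pdgfra below, were chosen after their values were seen.

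**Figure D3:**
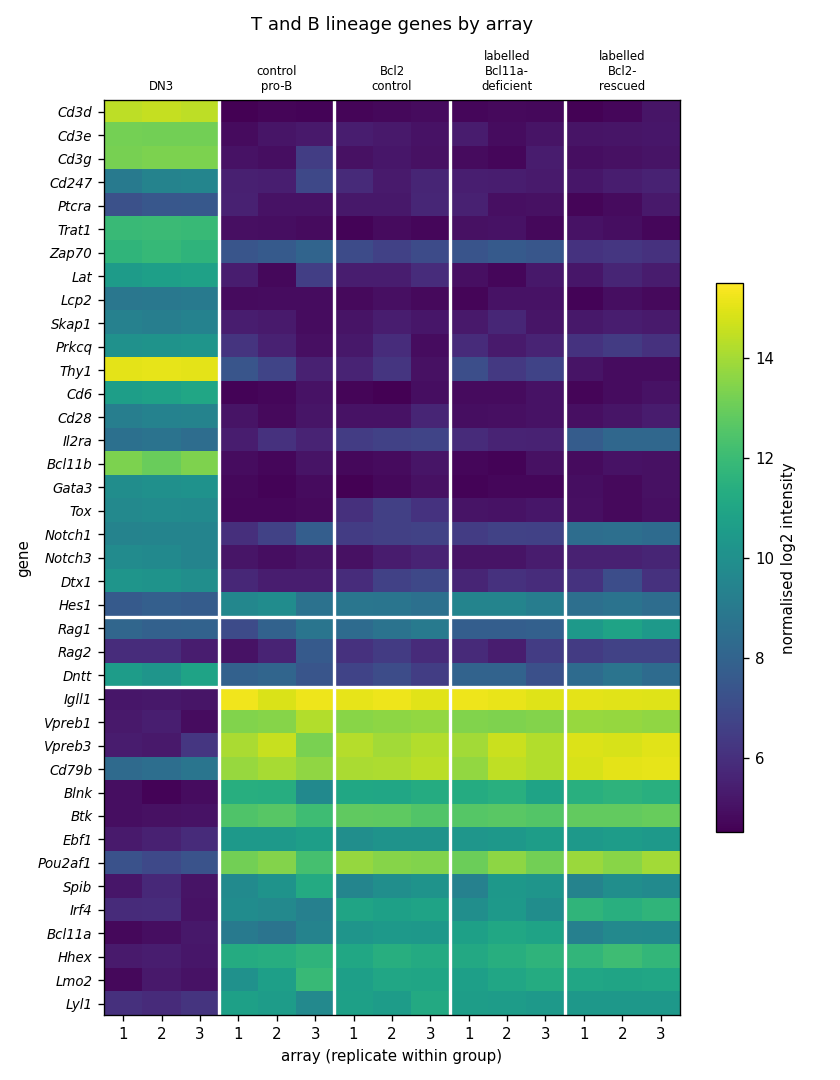
Normalised log2 intensity (colour) of T lineage genes (top block), recombination genes (middle block) and B lineage genes (bottom block) on each array, with DN3 arrays in the left 3 columns and the 12 pro-B arrays to the right. The CD3 genes are bright on DN3 arrays and dark on the pro-B arrays, the B lineage genes show the opposite, and Rag1 and Rag2 overlap between DN3 and control arrays.

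Of 25 measured genes of the Notch pathway, 8 were higher (32%) and 6 lower (24%), against 21% and 24.4% of all genes, with a median of 0.21. Beyond 2-fold, 4 were higher and none was lower, against 5.16% and 4.12% of all genes. With other settings the counts ran from 6 to 12 higher and 3 to 6 lower. Among its receptors, Notch3 read 9.81, 9.73 and 9.46 in DN3 arrays and 5.13, 4.92 and 5.14 in control arrays, at least 13.9-fold higher, and Notch1 was 2.64 ± 0.30 higher, at 9.41 to 9.47 in DN3 arrays and 5.99 to 7.77 in control arrays. Dtx1, an E3 ligase and target of Notch in thymocytes, was 4.63 ± 0.28 higher. Hes1, a repressor induced by Notch, read 7.62, 7.81 and 7.71 in DN3 arrays and 9.60, 9.84 and 8.66 in control arrays (-1.66 ± 0.24, limma adjusted p = 6.16e-05), and the groups did not overlap. Nrarp, a feedback inhibitor, was lower by -1.15 ± 0.22. Spen, a corepressor acting with the Notch effector Rbpj, was 1.52 ± 0.13 higher, and Maml2, a coactivator, 1.10 ± 0.18. Ptcra, itself a Notch target, rose as described above.

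T lineage regulators were higher in 13 of 22 measured genes and lower in 3, with a median of 0.93. Of the 16 that did not pass through 1 side alone, 10 were higher and 1 lower. Gata3, the zinc finger factor required from the earliest T cell stages, read 9.88, 10.02 and 10.09 in DN3 arrays and 4.72, 4.59 and 4.81 in control arrays, at least 17.5-fold higher (limma adjusted p = 2.28e-12). Tox, an HMG box factor of thymocyte development, was at least 14.8-fold higher and Ikzf2, an Ikaros family member, at least 6.83-fold. All 3 were below background on every control array. The 3 lower genes were Hhex, Lmo2 and Lyl1, factors of progenitors and, when misexpressed, T cell oncogenes. Hhex read 5.30, 5.37 and 5.16 in DN3 arrays and 11.25, 11.36 and 11.64 in control arrays, at least 53.4-fold lower. Lmo2 was at least 37.2-fold lower and Lyl1 was lower by -4.32 ± 0.24. Tcf7 has no probe named here and was not analysed.

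On the B cell side, the pre-BCR and BCR list was lower in 12 of 15 measured genes, all 12 beyond 2-fold, and higher in 1, with a median log2 fold change of -5.73 (-5.24 with bounds), against 24.4% of all genes called lower. Of these 15, 8 were detected on no DN3 array; of the other 7, 5 were lower and 1 higher. Igll1, the lambda5 chain of the surrogate light chain, read 5.19, 5.21 and 5.12 in DN3 arrays and 15.24, 14.87 and 15.20 in control arrays, at least 690-fold lower (limma adjusted p = 1.05e-15). Vpreb1, its partner, read 5.24, 5.44 and 4.86 in DN3 arrays and 13.42, 13.50 and 14.24 in control arrays, at least 264-fold lower. The promoters of both are printed above. The probe of Vpreb1 may also read its close copy Vpreb2. Vpreb3, which binds immunoglobulin chains in the endoplasmic reticulum, was lower by -8.38 ± 0.31 and detected on 1 DN3 array.

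Signalling parts of the BCR followed. Btk, the kinase whose loss stops human B cell development, read 4.93, 4.98 and 5.04 in DN3 arrays and 12.46, 12.65 and 12.08 in control arrays, at least 105-fold lower. Blnk, the adaptor it acts with, was at least 35.4-fold lower, and Pik3ap1, an adaptor for PI3 kinase, at least 43.6-fold lower. Cd79b, the signalling chain of the BCR, read 8.29, 8.48 and 8.76 in DN3 arrays and 13.81, 14.07 and 13.68 in control arrays (-5.35 ± 0.20). It was thus above background on all DN3 arrays while far below the controls. Dok3, an adaptor that dampens BCR signals, was lower by -6.17 ± 0.26 and likewise stayed detected in DN3 arrays, at 7.10 to 7.57. Cd79a has no probe named here and was not analysed.

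B lineage regulators were lower in 15 of 20 measured genes and higher in none, with a median of -1.70 (-1.18 with bounds). Of the 15 that did not pass through the pro-B arrays alone, 10 were lower. Ebf1, the factor that specifies the B lineage, read 5.30, 5.50 and 5.86 in DN3 arrays and 10.40, 10.42 and 10.67 in control arrays (-4.94 ± 0.17, limma adjusted p = 1.72e-11), and was detected on 1 DN3 array. Pou2af1, a B cell coactivator of octamer factors, was lower by -5.79 ± 0.27 and Spib, an ETS factor, by -5.05 ± 0.36. Mef2c and Irf4, which act in pre-B cells, were lower by -4.45 ± 0.38 and -4.02 ± 0.23. Pax5, the commitment factor, did not pass the filter on dim probes: its probe was detected on no DN3 array and on 1 control array, so no fold is given.

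Genes of later B cells were lower in 16 of 21 measured and higher in 3, with a median of -1.21. The count of lower genes ran from 9 against the Bcl2 control arrays to 17 without control replicate 3 or with array weights, and 7 of the 21 were detected on no DN3 array. Tnfrsf13c, the BAFF receptor, was at least 30.6-fold lower, and Cd40, a costimulatory receptor, at least 7.99-fold lower. Cd74, the invariant chain of MHC class II, read 7.50, 7.98 and 9.67 in DN3 arrays and 12.54, 13.48 and 11.33 in control arrays (-4.07 ± 0.53). Its values spread by about 2 units within each group without overlapping. H2-Ob, a chain of the class II regulator H2-O, was lower by -2.45 ± 0.28, whereas Ltb, lymphotoxin beta, was 2.49 ± 0.32 higher.

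**Figure D4:**
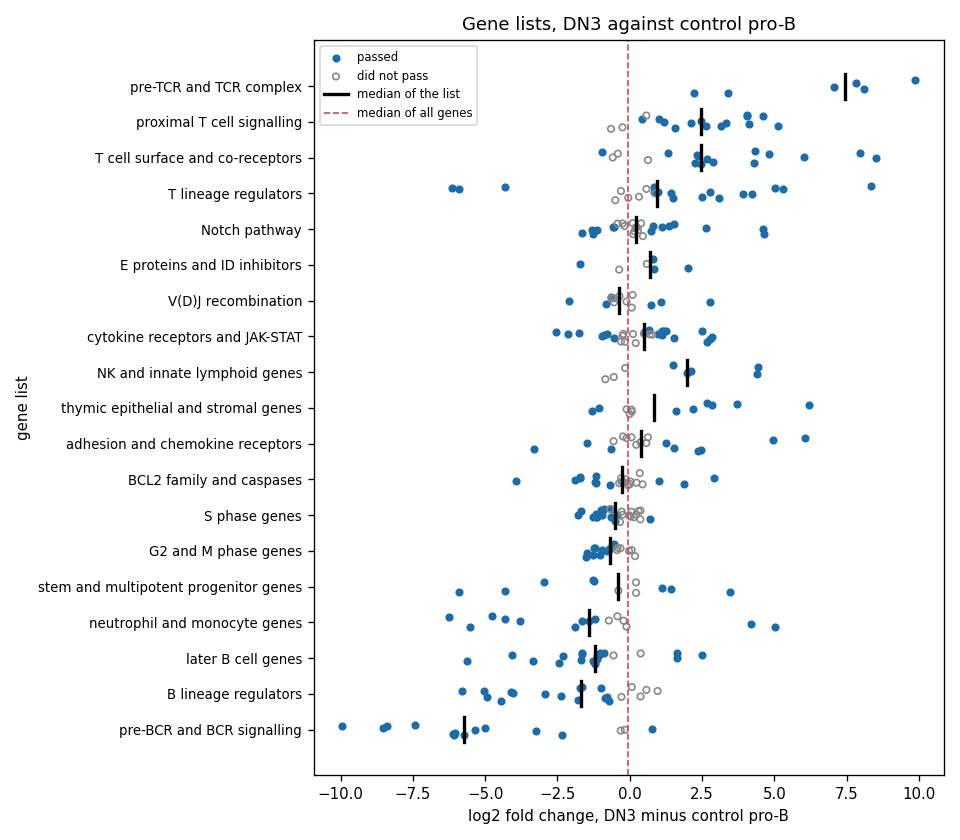
Log2 fold change, DN3 minus control pro-B, of each measured gene in 19 lists; filled points passed at an adjusted p under 0.05, open points did not, black bars are list medians and the dashed line is the median of all genes at -0.07. The TCR list has the highest median at 7.44 and the pre-BCR list the lowest at -5.73.

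In the V(D)J recombination list, 3 of 13 measured genes were higher, 3 lower and 7 did not pass, shares of 23.1% each way that lie near the 21% and 24.4% of all genes. Rag1, a subunit of the recombinase, read 8.12, 7.90 and 7.95 in DN3 arrays and 7.03, 7.95 and 8.78 in control arrays (0.07 ± 0.32, limma adjusted p = 0.876), so that the DN3 values lay inside the control range. Rag2 read 5.90, 5.89 and 5.38 in DN3 arrays and 5.03, 5.58 and 7.61 in control arrays (-0.35 ± 0.48) and was detected on 2 DN3 arrays and 1 control array. The sign of both turned without 1 control array, to -0.37 for Rag1 without replicate 1 and to 0.43 for Rag2 without replicate 3. Dntt, the terminal transferase that adds bases at joints, was 2.77 ± 0.26 higher, with 10.57, 10.24 and 10.88 in DN3 arrays and 7.92, 8.08 and 7.39 in control arrays. Poll, a DNA polymerase of end joining, was lower by -2.09 ± 0.15.

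The E proteins and their ID inhibitors moved unequally, with 3 of 6 measured genes higher and 1 lower. Id2, an inhibitor that blocks E protein binding to DNA, read 9.43, 9.97 and 9.73 in DN3 arrays and 7.37, 7.48 and 8.28 in control arrays (2.00 ± 0.24). Id3, an inhibitor induced by receptor signals in thymocytes, was 0.79 ± 0.21 higher. Of the E proteins, Tcf12 (HEB), which acts in thymocytes, was 0.85 ± 0.22 higher, and Tcf4 (E2-2) gave -0.36 ± 0.24 and did not pass. Tcf3, which encodes E2A, was below background on all DN3 arrays and on control replicate 3, and at least 2.56-fold lower. Id1, another inhibitor, gave 0.59 ± 0.34 and did not pass, but passed at 1.14 without DN3 replicate 2.

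Cytokine receptor and JAK-STAT genes were higher in 12 of 28 measured (42.9%) and lower in 7 (25%), where the share lower is near the 24.4% of all genes, with a median of 0.50. With other settings 8 to 13 were higher and 3 to 8 lower, with 3 lower without DN3 replicate 2 and 4 without DN3 replicate 1 or control replicate 1 or 2. Those lower included feedback genes induced by STAT5: Cish read 10.08, 10.14 and 10.49 in DN3 arrays and 12.77, 12.62 and 12.95 in control arrays (-2.55 ± 0.15), and Socs2 was lower by -1.77 ± 0.15. Socs3 and Socs1, feedback genes of the same family, were higher, by 2.67 ± 0.22 and at least 1.47-fold. Ifngr1, the interferon gamma receptor chain, was 2.49 ± 0.15 higher. The control cells were kept in IL-7, and whether the DN3 cells were is unsure, as said above.

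Survival genes split between the 2 best known BCL2 family members. Bcl2, which protects thymocytes and lymphocytes from death, read 10.92, 10.96 and 10.74 in DN3 arrays and 8.43, 8.33 and 7.16 in control arrays (2.90 ± 0.34, limma adjusted p = 8.12e-06), and all 5 of its kept probes were higher. Bcl2l1 (Bcl-xL), its relative, was lower by -1.89 ± 0.25, with 6.47 to 6.91 in DN3 arrays and 8.17 to 8.79 in control arrays. Bok, a pore-forming member, was at least 8.97-fold lower. In the whole family list with caspases, 3 of 23 genes were higher and 8 lower, with a median of -0.25.

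Genes of the cell cycle were lower in DN3 arrays than in control arrays, by small amounts. In the S phase list 14 of 27 were lower and 1 higher (median -0.52), and in the G2 and M phase list 12 of 18 were lower and none was higher (median -0.70). Rrm2, a subunit of ribonucleotide reductase, was lower by -1.67 ± 0.20, Ccne2, cyclin E2, by -1.80 ± 0.24, Cdca8, a chromosomal passenger protein, by -1.51 ± 0.17 and Cdc20, an activator of the anaphase-promoting complex, by -1.03 ± 0.15. These counts depended on which controls were used. Against the 3 Bcl2 control arrays, 4 S phase genes were higher and 5 lower (median -0.06), and 4 G2 and M phase genes were higher and 3 lower (median 0.14). Without a DN3 or control replicate, the G2 and M phase count of lower genes ran between 7 (without DN3 replicate 2 or control replicate 1) and 14 (without control replicate 3). Glycolysis genes were lower in 7 of 17 and higher in 2 (median -0.44), but lower in 2 and higher in 6 against the Bcl2 controls (median 0.34). The 24 cytosolic ribosomal protein genes gave 1 higher and 1 lower, but 13 higher and 1 lower with cyclic loess normalisation.

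Counts of stimulus and stress genes depended on the setting. Immediate early and heat shock genes were higher in 7 of 22 and lower in 1, with 4 to 10 higher over the other settings; among them Egr1, induced by antigen receptor signals, was 2.52 ± 0.36 higher. Interferon response genes gave 5 higher and 3 lower of 21, but 2 higher without control replicate 2, 3 higher without control replicate 1 or DN3 replicate 3, and 5 lower without control replicate 3; all settings together ran from 1 to 8 higher and 1 to 6 lower. Igtp, an interferon-inducible GTPase, was 2.40 ± 0.21 higher. p53 target genes gave 3 higher and 7 lower of 23, but 2 higher and 17 lower against the Bcl2 control arrays, and 4 lower in the fit of the 6 arrays alone. Fas, a death receptor among them, was 4.20 ± 0.24 higher by its brightest probe; its 3 probes ran between 0.14 and 4.20. Adhesion and chemokine receptor genes were higher in 6 of 17 (35.3%) and lower in 3 (17.6%), with a median of 0.38. Over all genes the shares were 21% and 24.4%. Itgae, the CD103 integrin chain, read 11.32, 11.79 and 12.39 in DN3 arrays and 5.04, 5.58 and 6.65 in control arrays (6.08 ± 0.35). Itgb7, its partner, was 4.94 ± 0.32 higher. Both chains of this integrin were far above all 12 pro-B arrays. Of the G1 cyclin and CDK inhibitor, Myc and ribosome biogenesis, respiratory chain and sterol lists, at most 26.7% of a list was called in 1 direction.

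Several genes with large changes stand outside these lists. Pdlim4, a PDZ and LIM domain protein, read 14.17, 14.05 and 14.09 in DN3 arrays and 6.02, 4.99 and 5.11 in control arrays (8.73 ± 0.22). Cd163l1, a scavenger receptor known from gamma delta T cells, was at least 90.9-fold higher. Among lower genes, Crhbp, the binding protein of corticotropin-releasing hormone, read 4.77, 5.71 and 4.82 in DN3 arrays and 13.57, 13.68 and 13.40 in control arrays (-8.45 ± 0.23). Chst3, a chondroitin sulfotransferase, was at least 165-fold lower and Clgn, a chaperone of the endoplasmic reticulum, at least 42.1-fold lower.

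Markers of other cells were read on the same arrays. Of 21 NK and innate lymphoid genes with a probe, 12 did not pass the filter and 3 more passed through 1 side alone; of the other 6, 4 were higher and none was lower. Nkg7, a granule protein of cytotoxic cells, read 10.39, 10.83 and 11.32 in DN3 arrays and 6.58, 6.72 and 5.95 in control arrays (4.44 ± 0.35), and Xcl1, a chemokine of NK and CD8 T cells, was at least 8.93-fold higher. Klrd1, the CD94 receptor, was 1.99 ± 0.38 higher and Prf1, perforin, 2.13 ± 0.36. The summed linear intensity of the 21 genes with a probe was 4391 to 7309 in DN3 arrays and 1447 to 2355 in control arrays. The defining NK genes Ncr1, Klrb1c, Gzmb, Eomes, Tbx21 and Il2rb were below background on all DN3 arrays.

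Some genes of stroma passed with the DN3 arrays alone. Of 27 thymic epithelial and stromal genes with a probe, 15 did not pass the filter and 8 passed with the DN3 arrays alone, so no share of the list is read; 1 passed with the pro-B arrays alone, and of the other 3 none was higher and 1 was lower. Cxcl12, a chemokine of stromal cells, read 12.29, 10.37 and 11.04 in DN3 arrays and 5.22, 4.97 and 4.91 in control arrays, at least 41.2-fold higher. Sparc and Col1a1, matrix genes, were at least 6.87-fold and 3.38-fold higher, and Pdgfra, a growth factor receptor of mesenchyme, at least 3.43-fold. DN3 replicate 1 was the highest of the 3 for all 4 genes. The summed intensity of the 27 genes with a probe was 4548 to 10066 in DN3 arrays and 3411 to 6334 in control arrays; 11 of the 27 were below background on all DN3 arrays, among them the thymic epithelial genes Foxn1, Krt5, Psmb11 and Prss16. The part of such cells in the results above was not tested.

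**Figure D5:**
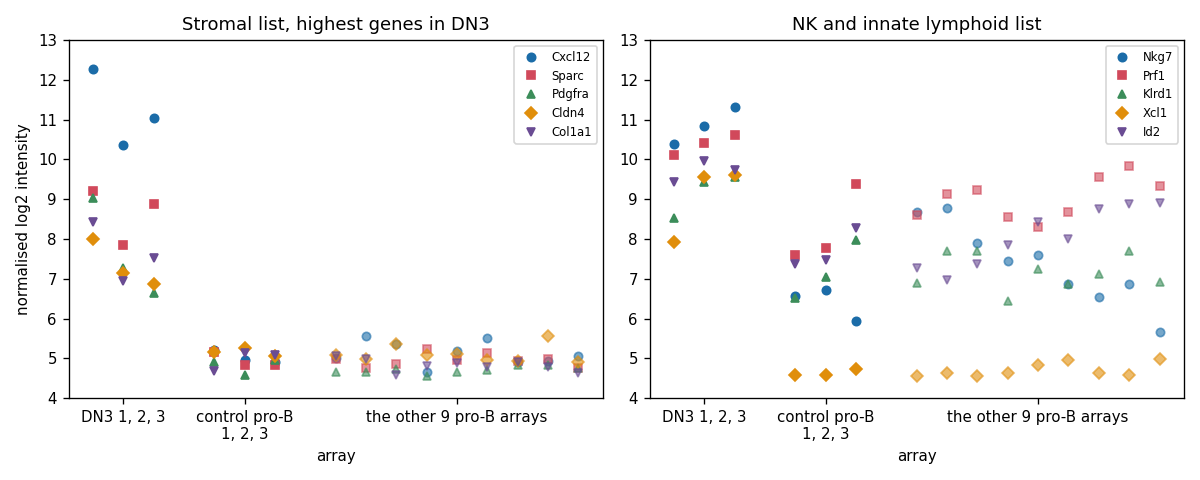
Normalised log2 intensity of 5 stromal genes (left panel) and 5 NK and innate lymphoid genes (right panel) on each array, with DN3 arrays on the left, control pro-B arrays next and the other 9 pro-B arrays on the right. Cxcl12 lies between 10.37 and 12.29 on DN3 arrays with replicate 1 the highest, and Nkg7 between 10.39 and 11.32.

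Neutrophil and monocyte genes were lower in 9 of 15 measured and higher in 2; of the 15, 6 passed with the pro-B arrays alone. Those higher were Cebpb, a leucine zipper factor (4.20 ± 0.30), and Ly6c1, a surface antigen also found on lymphoid cells (5.04 ± 0.39). Lyz1, a lysozyme, read 5.87, 6.47 and 6.28 in DN3 arrays and 12.99, 12.08 and 12.25 in control arrays (-6.24 ± 0.36), and Mpo, myeloperoxidase, was at least 14.0-fold lower. Lyz2 and S100a8 were at least 27.3-fold and 7.36-fold lower against these controls but gave 0.024 and 0.020 against the Bcl2 control arrays, where Mpo gave -0.034, Lyz1 gave -0.42 and the list had 3 higher and 2 lower genes. The summed intensity of the 24 genes with a probe was 4647 to 5942 in DN3 arrays, 8835 to 14064 in control arrays and 1702 to 14064 over all 12 pro-B arrays. This sum thus ranged more widely over the 12 pro-B arrays, which hold several labelled groups, than over the 3 DN3 arrays of 1 group. The 3 Bcl2 control arrays read 1702 to 1923. On DN3 arrays most of the sum came from Cebpb, at 11.14 to 11.51, and Ly6c1, at 10.53 to 11.42. Mpo, Lyz2 and S100a8 were below background there, so the sum does not measure myeloid cells on DN3 arrays. Adult beta globin genes Hbb-bs and Hbb-bt, whose near-identical sequences share probes, were at least 10.9-fold and 8.52-fold lower, whereas Hba-a1, an alpha globin, was at least 2.41-fold higher. Cpa3, a mast cell carboxypeptidase, was 3.08 ± 0.36 higher, alone among 5 basophil and mast cell genes measured. Stem and multipotent progenitor genes were higher in 3 and lower in 5 of 11, erythroid and megakaryocyte genes in 1 and 4 of 9, dendritic cell genes in 1 and 1 of 9, and mature and double-positive T cell genes in 5 and 1 of 10. Over all genes the shares were 21% and 24.4%. Of the 9 erythroid genes, 6 passed with the pro-B arrays alone and 1 with the DN3 arrays alone. Among the other 2, none was higher and 1 was lower. Of the 10 mature T cell genes, 2 passed with the DN3 arrays alone, and of the other 8, 4 were higher and 1 lower.

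The sexes of the mice are not labelled. Xist, expressed from the inactive X, read 4.91, 4.83 and 5.62 in DN3 arrays, below background on all 3, and 9.60, 5.31 and 9.71 in control arrays. Eif2s3y, on the Y chromosome, read 7.66, 7.89 and 8.35 in DN3 arrays and 4.70, 8.16 and 4.83 in control arrays. The DN3 arrays and control replicate 2 thus carried the signal of this Eif2s3y probe and control replicates 1 and 3 the Xist signal. Both signals differed between the group means, while control replicate 2 lay inside the DN3 range for both. Other Y-linked readings lay near background and did not follow this probe on the DN3 arrays. Uty read 4.87, 5.22 and 5.12 in DN3 arrays and 5.62, 6.09 and 5.35 in control arrays. Kdm5d gave -0.09, and the second Eif2s3y probe gave -0.39.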

How the data were processed

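Total RNA of 15 samples was hybridised to Illumina bead arrays after biotin labelling with the Ambion MessageAmp kit, per the labels' protocols. The deposited scanner table gives, per the file headers, an average signal, which is a linear intensity, and a detection value, a fraction that rises with the signal. One minus that fraction served as the detection p. The deposited score of the series matrix was the intensity centred and scaled per probe, and served as an alternative. No source used here names the scanner software.

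With limma 3.58.1 in R 4.3.3, the deposited intensity was background corrected by detection p (neqc, offset 16), brought to the same quantiles over all 15 arrays and expressed as log2. Probes with detection p under 0.05 on at least 3 arrays were kept (18843 of 45263). Of these, 15829 have 1 gene symbol in the platform annotation and 3014 have none. The brightest kept probe stood for a gene, giving 10290 genes. A mean per group was fitted over all 15 arrays (lmFit, eBayes, Benjamini-Hochberg adjusted p under 0.05, two-sided), and treat asked for more than 2-fold. Errors are standard errors of this fit. The p-values measure only the spread between arrays, whose number limits the precision. An exact permutation of 3 against 3 arrays cannot go below 0.1, so none was run.

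A fold written "at least" sets the bright group's mean against, per array of the dim group, the lowest detected signal or the probe's own if higher. Members and the 33 gene lists were chosen with earlier results of these data known. Of 729 listed genes, 514 were measured and 70 have no named probe. Genes were named by a rule: Bcl11a and Bcl11b, the 10 highest and 10 lowest, the TCR, V(D)J and E protein lists, cell type markers, and the members with the smallest p of each other list. Alternatives covered normalisation, background, filter, probe choice, weights, blocks, comparator and left-out arrays.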

Additional observations from a re-analysis of the deposited data

How the results depend on the processing

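Under 20 alternatives on the scanner intensities, all 6 TCR genes were called higher throughout, 12 to 14 of the proximal T cell signalling genes were higher and 12 to 13 of the pre-BCR and BCR genes were lower. Counts of other lists moved more: lower genes ran from 4 to 17 for p53 targets and from 9 to 17 for later B cells, and higher genes from 1 to 8 for interferon response, 4 to 10 for immediate early and heat shock and 6 to 12 for Notch. Over all genes, the counts of 2156 higher and 2512 lower, and of 531 and 424 beyond 2-fold, moved under several settings. Fitting only the 6 arrays gave 1355 higher and 1367 lower genes, with 282 lower beyond 2-fold. Normalising them alone as well gave 1384 higher and 1372 lower, with 307 and 233 beyond 2-fold. Cyclic loess gave 1635 lower genes, 247 of them beyond 2-fold, and scaling to the 75th percentile gave 250 lower beyond 2-fold. Normexp without detection p left 340 higher and 267 lower beyond 2-fold. The cause of these shifts was not tested. With 1 array left out, the counts ran from 1875 to 2690 higher and 2054 to 3206 lower, and from 480 to 638 and 378 to 563 beyond 2-fold; each was highest without control replicate 3.

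With the replicate number as a block, 2205 genes were higher and 2599 lower, and 550 and 444 beyond 2-fold. The numbers did not pair the arrays: deviations of same-numbered DN3 and control arrays correlated at 0.03, 0.09 and 0.08 only. Slide as a random block gave 1881 higher and 2109 lower genes. DN3 arrays share their slide with no other group.

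Signs turned for 9 named genes, of which Rag1, Rag2 and Cd8b1 had not passed and the others had. Rag2 gave 0.24 with cyclic loess, 0.81 with 75th percentile scaling, 0.31 with array weights and, with 1 array left out, -0.86 to 0.43. Rag1 gave -0.37 to 0.51 with 1 array left out. Cd8b1 gave 4.53 as the mean of its probes. Against the Bcl2 control arrays, Kit gave -0.091, Rag1 -0.68, Lyz2 0.024 and S100a8 0.020. The deposited scores, in SD units of unnormalised intensity, gave differences of -1.03 for Id3, -0.24 for Kit, -0.31 for Maml2, -0.11 for Rag1, 0.88 for Rag2 and -0.44 for Tcf12. With these scores 26 of the 106 genes checked kept their sign but no longer passed, while 72 gave the same call. Bcl11a, Bcl2, Dntt, Notch1 and Il2ra were among the 26, with limma adjusted p of 0.32, 0.278, 0.198, 0.0797 and 0.0795. In the fit of the 6 arrays alone Tcf3, Tcf12 and Id3 no longer passed, with limma adjusted p of 0.0727, 0.0543 and 0.051. The arrays lack probes named for Tcf7, Lck and Cd79a here, and dim probes such as that of Pax5 limit what could be compared.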
